A study of Homo sapiens with 22 samples.

Results

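The dual-specificity phosphatase (DUSP), Sprouty (SPRY) and Spred genes are the inducible brakes of mitogen-activated protein kinase (MAPK) signalling. Their RNA was followed here in HEK293 cells, a human embryonic kidney line, that made activating fusions of dCas9, a Cas9 that binds DNA at a guide RNA's site without cutting. The genes were taken by name from the deposited count table: DUSP1, DUSP2, DUSP4, DUSP5, DUSP6, DUSP8, SPRY1, SPRY2, SPRY4 and SPRED1, which are 10 of its 48162 gene IDs. Each of the 10 matched a single ID, and all 10 were among the 16694 genes that passed the filter on low counts. The question put to them was whether the rise of immediate early genes in these cells came with a rise of feedback genes. RNA was sequenced in 12 libraries, 2 in each of 6 groups, described in the series as biological replicates. Every group was given dox, the inducer of the fusions, for 48 hours, and cells were then sorted on their fluorescent markers, GFP and BFP together for the fusion groups and BFP for WT. The VPRP sgHBB cells carried the guide to the beta-globin gene HBB and a fusion of VPR, made of the VP64, p65 and Rta activators, to p300, an acetyltransferase encoded by EP300. With the same guide, VPR sgHBB cells carried VPR alone, p300 sgHBB cells the p300 part alone, and p300 D1399Y sgHBB cells p300 with a substitution that impairs catalysis. The VPRP non-target cells carried the VPRP fusion with a guide that has no target. The WT cells carried a guide, which the labels do not identify, and no fusion, so a comparison with WT may include the effect of a different guide.

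A MAPK cascade passes a signal from receptors through RAS and RAF to the kinase ERK, or from stress to the kinases JNK and p38, and the active kinase switches on immediate early genes such as FOS and EGR1 within minutes. The same signal also induces its own inhibitors. The phosphatases DUSP1, DUSP2, DUSP4 and DUSP5 act mainly in the nucleus, with DUSP5 restricted to ERK and DUSP1 acting on JNK and p38 as well, while DUSP6 holds ERK in the cytoplasm and DUSP8 prefers JNK and p38. Sprouty and Spred proteins act further upstream, between the receptor and RAF. Because these genes answer to the pathway they restrain, several of them are used as readouts of its activity.

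The stretches in front of 4 of the genes are printed, and these genes were picked for their calls. DUSP1 and DUSP8 were both higher with p300 than with its D1399Y form, but only DUSP1 was called higher with p300 than in WT. SPRY4 was higher with either VPRP group than in WT, and SPRED1 was lower. The stretches are the 250 bases before the annotated start, from RefSeq on GRCh38.p14 and written from 5′ to 3′ on the gene's own strand. Capitals mark TGACG on either strand (its reverse is CGTCA), the 5-letter core of the cAMP response element (CRE). The full element TGACGTCA holds a pair of such cores that overlap. The regions are chr5:172771196-172771445 on the minus strand for DUSP1, chr11:1572272-1572521 on the minus strand for DUSP8, chr5:142324248-142324497 on the minus strand for SPRY4 and chr15:38252586-38252835 on the plus strand for SPRED1.
DUSP1: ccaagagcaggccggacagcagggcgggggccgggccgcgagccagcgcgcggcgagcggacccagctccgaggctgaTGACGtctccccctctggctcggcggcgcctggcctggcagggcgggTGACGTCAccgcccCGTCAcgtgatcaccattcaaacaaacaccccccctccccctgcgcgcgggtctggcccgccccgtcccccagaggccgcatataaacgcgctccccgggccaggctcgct
DUSP8: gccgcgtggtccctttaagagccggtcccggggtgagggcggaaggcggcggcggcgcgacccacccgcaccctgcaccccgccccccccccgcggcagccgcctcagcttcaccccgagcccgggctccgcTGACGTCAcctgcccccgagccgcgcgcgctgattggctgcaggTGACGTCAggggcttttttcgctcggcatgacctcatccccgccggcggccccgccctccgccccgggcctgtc
SPRY4: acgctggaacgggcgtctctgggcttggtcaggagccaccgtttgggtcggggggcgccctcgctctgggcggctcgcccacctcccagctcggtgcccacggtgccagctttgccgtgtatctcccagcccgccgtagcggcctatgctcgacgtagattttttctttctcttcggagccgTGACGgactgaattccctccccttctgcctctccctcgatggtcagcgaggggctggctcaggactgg
SPRED1: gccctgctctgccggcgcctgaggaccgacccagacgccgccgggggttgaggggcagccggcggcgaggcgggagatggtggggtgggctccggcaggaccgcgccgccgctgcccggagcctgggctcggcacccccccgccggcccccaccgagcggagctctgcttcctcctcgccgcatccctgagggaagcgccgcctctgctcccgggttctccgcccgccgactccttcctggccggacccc
The full element stood 125 bases before the start of DUSP1, and 118 and 74 bases before that of DUSP8. Of 35116 RefSeq windows of the same length, 1.65% held the full element and 21.2% a core. The window of SPRY4 held a core 68 bases before its start, and that of SPRED1 held none. Among the 8 of 10 genes with an entry, a core was also found before 1 of the 3 starts of SPRY2, but not of DUSP2, DUSP6 or SPRY1. DUSP4 and DUSP5 have no entry in the table. The EGR motif GCGNGGGCG, searched on both strands, was found in windows of DUSP2, SPRY1, SPRY2 and SPRY4 and in 8.41% of all windows. These are matches of letters in 1 window and describe no binding, and no RNA level was tested against them.

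Library totals ran from 14894558 to 17479523 counts, and levels are given as CPM, counts scaled to the size of the library with TMM factors, with no correction for gene length, so levels are compared between groups and not between genes. Each adjusted p is from the quasi-likelihood F test of edgeR, adjusted by Benjamini-Hochberg over the 16694 genes, and a gene is called higher or lower when that value is under 0.05. HBB, the target, had 1732 and 1379 CPM in VPRP sgHBB, 65.8 and 94.98 CPM in VPR sgHBB, 189 and 185 CPM in p300 sgHBB, 76.1 and 82.1 CPM in p300 D1399Y sgHBB and no count in VPRP non-target or WT, which matches the labels. All 6 matched HEK293 markers of 7 listed were detected, at a summed level of 295 to 313 CPM in VPRP sgHBB and 551 to 552 CPM in WT, with the other groups between these values. The sum hides differences: with VPRP sgHBB against WT, VIM, CDH2, NEFM and LIN28B were called lower, INA was called higher and PAX2 was not called. Of 7 matched markers of other cell types, PTPRC, CD3E, ALB, AFP and HBA1 stayed at 0 to 0.669 CPM in the group means. EPCAM, an epithelial marker, averaged 1.68 to 3.79 CPM and was called higher in VPR sgHBB against WT (log2 0.90, adjusted p = 0.0341) and in no other comparison with WT. COL1A1, a fibroblast collagen, averaged 21.5 to 59.9 CPM in the 5 fusion groups and 12.2 CPM in WT and was called higher in each. The part of these markers in the results below was not tested, and in bulk RNA fewer cells of a kind and less RNA per cell cannot be told apart.

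The 10 feedback genes did not move in 1 direction. With VPRP sgHBB against WT, DUSP5 and SPRY4 rose, DUSP2, DUSP4, SPRY1, SPRY2 and SPRED1 fell, and DUSP1, DUSP6 and DUSP8 were not called. That is 2 of 10 higher and 5 of 10 lower, in a comparison that called 59.1% of all tested genes, 31.1% higher and 28% lower. The median log2 change of the 10 genes was -0.56, against 0.04 over all genes. With p300 sgHBB, DUSP1 and DUSP5 rose and DUSP4 and SPRED1 fell, in a comparison that called 46.1% of all genes (24.5% up, 21.6% down). With VPRP non-target, DUSP1, DUSP5, DUSP8 and SPRY4 rose and SPRY1 and SPRED1 fell, beside 59.7% of all genes called (31.2% up, 28.5% down). With VPR sgHBB, DUSP2 rose and DUSP8 fell, where 25.3% of all genes were called (13.8% up, 11.5% down). With p300 D1399Y sgHBB, DUSP5 rose and DUSP1, DUSP4 and DUSP8 fell, where 30.2% of all genes were called (15.7% up, 14.5% down). These 5 comparisons share the same 2 WT libraries. Of the 10 feedback genes, 7 were called in either direction with VPRP sgHBB, 2 with VPR, 4 each with p300 and its D1399Y form, and 6 with VPRP non-target, each near the share of all genes called.

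**Figure D1:**
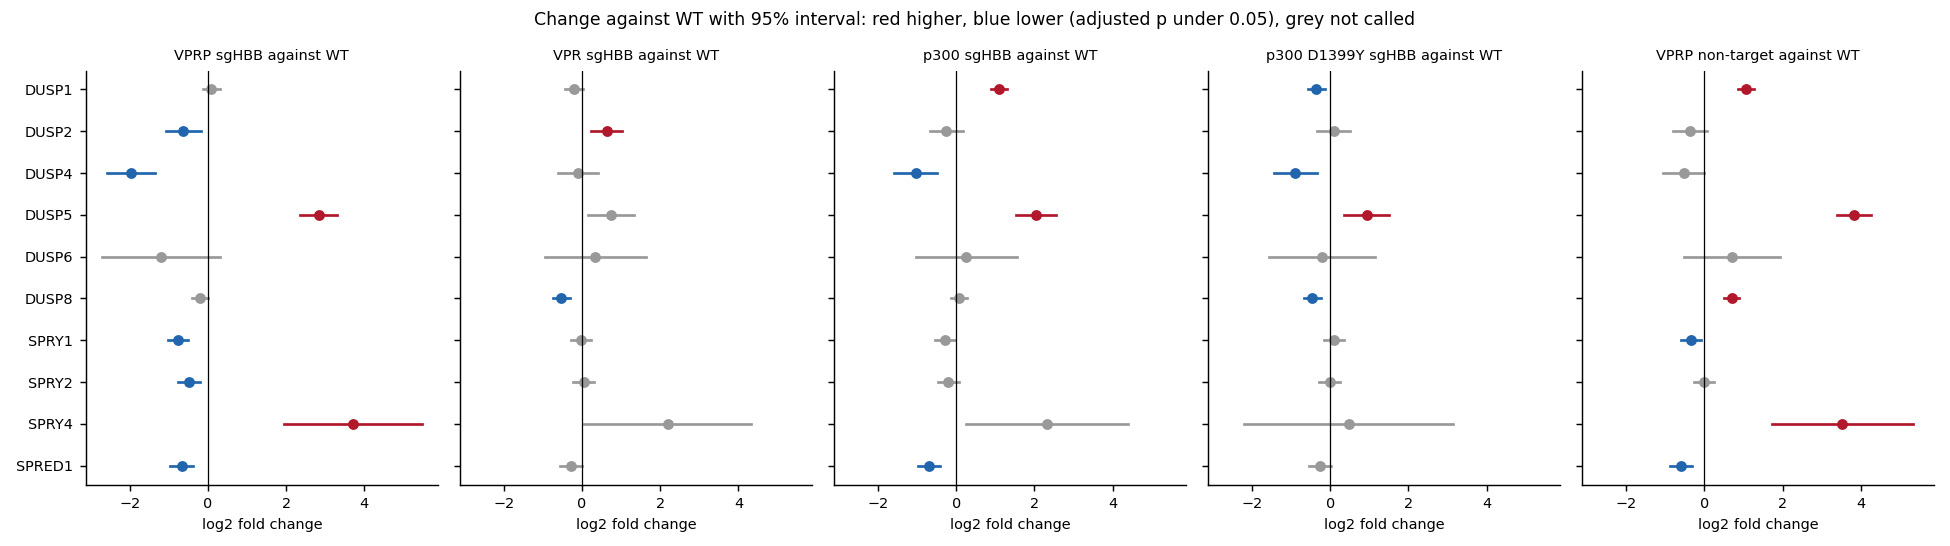
Log2 fold change of each of the 10 feedback genes (rows) against WT, 1 panel for each fusion group, with bars for the 95% interval; red points were called higher, blue points lower and grey points not called at an adjusted p of 0.05. DUSP5 lies right of 0 in all 5 panels, while SPRED1 lies left of 0 in all 5 and DUSP1 lies on either side.

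DUSP5, the nuclear phosphatase that acts on ERK alone, rose the most often. It had 10.8 and 10.4 CPM in VPRP sgHBB, 2.60 and 2.40 CPM in VPR sgHBB, and 6.00 and 6.24 CPM in p300 sgHBB. In p300 D1399Y sgHBB it had 2.89 and 2.77 CPM, in VPRP non-target 20.7 and 21.7 CPM, and in WT 1.01 and 1.94 CPM. The groups stood in the order VPRP non-target, VPRP sgHBB, p300, p300 D1399Y, VPR and WT, and no group's libraries overlapped those of the next. Against WT it was 14.2-fold higher in VPRP non-target cells (log2 3.83, SE 0.215, adjusted p = 7.1e-17) and 7.12-fold higher with VPRP sgHBB (log2 2.83, SE 0.229, adjusted p = 1.04e-12). With p300 sgHBB it was 4.11-fold higher (log2 2.04, SE 0.246, adjusted p = 2.26e-08). With p300 D1399Y the change was smaller (log2 0.93, SE 0.281, adjusted p = 0.0106) and rested on single libraries: without WT replicate 1 it was 0.54 (adjusted p = 0.224), and without p300 D1399Y replicate 1 it was 0.87 (adjusted p = 0.0697). VPR stayed just outside the threshold (log2 0.75, SE 0.29, adjusted p = 0.0542), and without WT replicate 2 it was 1.30 (adjusted p = 0.0154) and with upper-quartile factors 0.78 (adjusted p = 0.0463). The difference between adjacent groups was called for VPRP sgHBB against p300 (log2 0.79, adjusted p = 0.00089) and for p300 against p300 D1399Y (log2 1.11, adjusted p = 0.000158). The annotation holds DUSP5P1 and DUSP5P2, pseudogenes of DUSP5, and how reads were divided among such copies is not given in the sources used here.

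DUSP1, the phosphatase of ERK, JNK and p38 and itself an immediate early gene, separated the groups into high and low. It had 28.6 and 27.5 CPM in VPRP sgHBB, 25.1 and 20.6 CPM in VPR sgHBB, and 57.4 and 55.5 CPM in p300 sgHBB. In p300 D1399Y sgHBB it had 20.7 and 20.4 CPM, in VPRP non-target 53.0 and 56.9 CPM, and in WT 24.9 and 27.9 CPM. The p300 and VPRP non-target libraries overlapped each other and lay far above the other 8, which stayed between 20.4 and 28.6 CPM. DUSP1 was 2.14-fold higher than in WT with p300 (log2 1.10, SE 0.0992, adjusted p = 5.06e-11) and 2.08-fold higher in VPRP non-target cells (log2 1.06, SE 0.0992, adjusted p = 3.54e-11). VPRP sgHBB did not pass (log2 0.09, 95% interval -0.12 to 0.30, adjusted p = 0.488), and nor did VPR (log2 -0.21, 95% interval -0.42 to 0.01, adjusted p = 0.164), which passed without VPR replicate 1 (log2 -0.36, adjusted p = 0.033). The fall with p300 D1399Y (log2 -0.36, SE 0.108, adjusted p = 0.0103) was lost without WT replicate 2 (log2 -0.27, adjusted p = 0.153) and without p300 D1399Y replicate 2 (log2 -0.35, adjusted p = 0.0621).

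**Figure D2:**
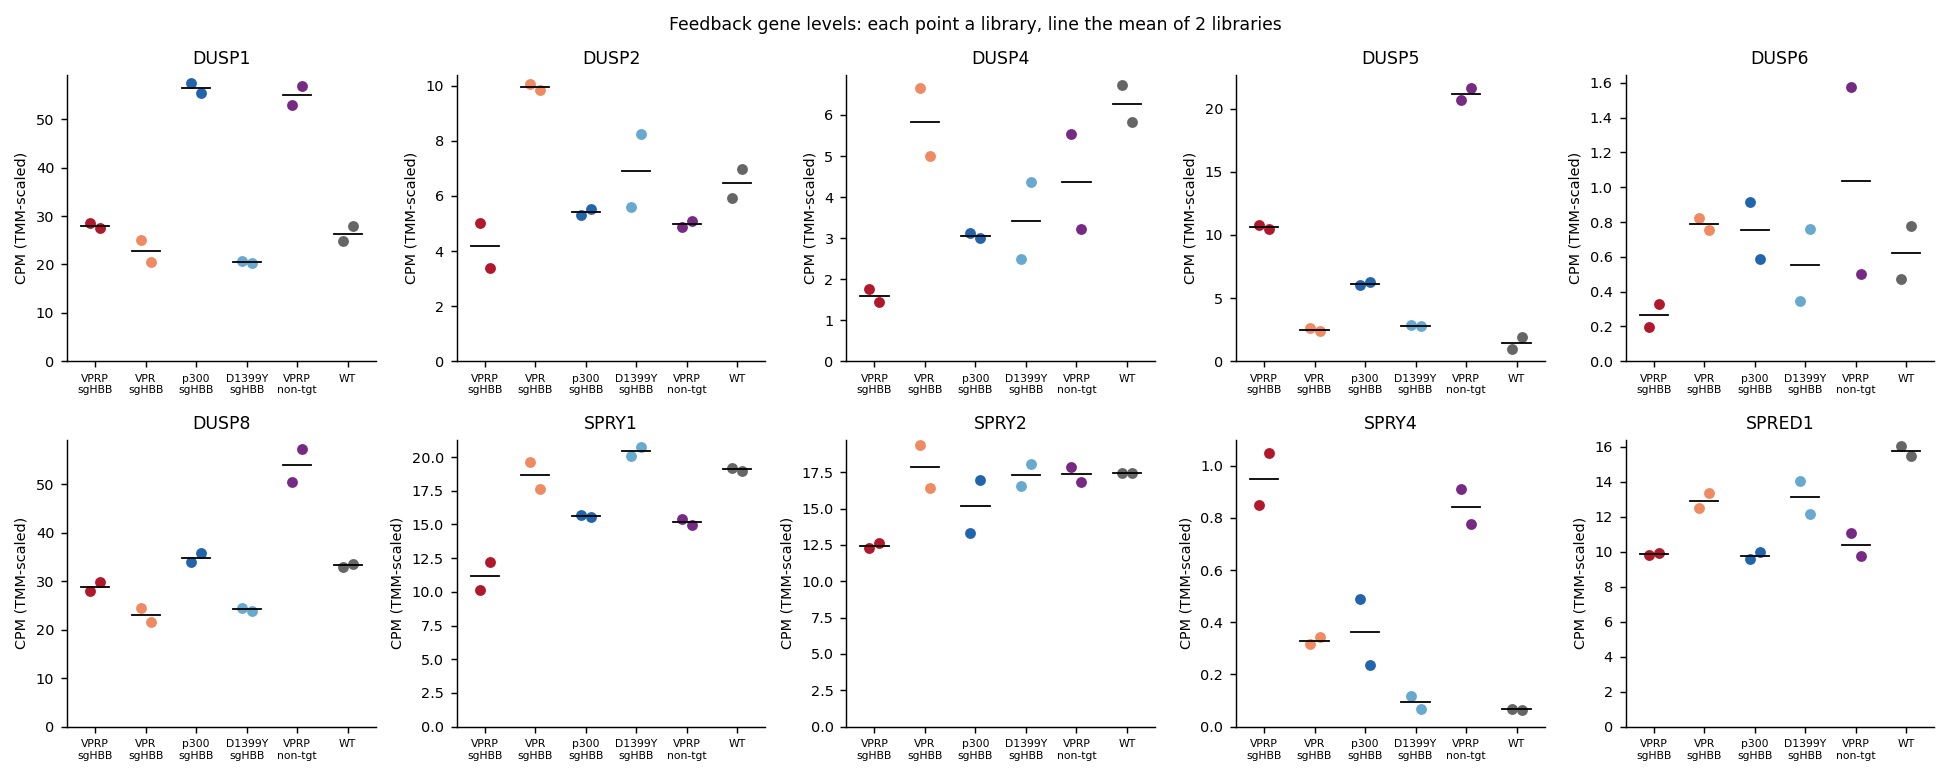
Level of each of the 10 feedback genes in CPM (vertical axis, from 0, its own scale in each panel) in the 6 groups, each point a library and each line the mean of 2. DUSP5 falls into separate steps from 1.01 CPM in WT to 21.7 CPM in VPRP non-target, and DUSP1 is at 53.0 to 57.4 CPM in p300 and VPRP non-target and at most 28.6 CPM elsewhere.

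DUSP2 and DUSP4, the other nuclear phosphatases, did not follow DUSP1 or DUSP5. DUSP2 had 5.02 and 3.37 CPM in VPRP sgHBB, 10.1 and 9.85 CPM in VPR sgHBB and 5.32 and 5.54 CPM in p300 sgHBB. It had 5.61 and 8.23 CPM in p300 D1399Y sgHBB, 4.86 and 5.10 CPM in VPRP non-target and 5.92 and 6.99 CPM in WT. The VPR libraries were the highest and did not overlap any other group. DUSP2 was lower than in WT with VPRP sgHBB (log2 -0.63, SE 0.221, adjusted p = 0.0137) and higher with VPR (log2 0.63, SE 0.2, adjusted p = 0.0195). Both calls are weak: the VPRP sgHBB value was -0.38 without VPRP sgHBB replicate 2 (adjusted p = 0.222) and -0.51 without WT replicate 2 (adjusted p = 0.116). The VPR value missed the threshold with DESeq2 (log2 0.61, adjusted p = 0.0516), without either VPR replicate (log2 0.61 and 0.64, adjusted p = 0.0605 and 0.0582) and without WT replicate 1 (log2 0.51, adjusted p = 0.16). Directly compared, VPRP sgHBB was 2.4-fold lower than VPR sgHBB (log2 -1.26, SE 0.21, adjusted p = 6.26e-06).

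DUSP4 fell in 3 of 5 fusion groups. It had 1.76 and 1.44 CPM in VPRP sgHBB, 6.65 and 5.00 CPM in VPR sgHBB and 3.12 and 3.003 CPM in p300 sgHBB. It had 2.49 and 4.36 CPM in p300 D1399Y sgHBB, 5.53 and 3.21 CPM in VPRP non-target and 6.72 and 5.82 CPM in WT. The level was lowest in VPRP sgHBB, whose libraries overlapped no other group, and highest in WT and VPR, which overlapped. Against WT it fell 3.93-fold with VPRP sgHBB (log2 -1.97, SE 0.302, adjusted p = 9.46e-07) and 2.04-fold with p300 (log2 -1.03, SE 0.273, adjusted p = 0.00216). The change with p300 D1399Y (log2 -0.89, SE 0.271, adjusted p = 0.0112) was -0.79 without WT replicate 1 (adjusted p = 0.0889) and -0.55 without p300 D1399Y replicate 1 (adjusted p = 0.209). VPRP non-target did not pass (log2 -0.53, adjusted p = 0.0786), but did without its replicate 1 (log2 -0.997, adjusted p = 0.00838), with no low-count filter (log2 -0.58, adjusted p = 0.0362) and when only those groups were fitted (log2 -0.53, adjusted p = 0.048). MAGEA10, a cancer-testis gene of the X chromosome, divides the groups sharply. It averaged 0.213 CPM in VPRP sgHBB, 0 CPM in p300 and 0.0692 CPM in p300 D1399Y. The averages were 25.9 CPM in VPR, 32.1 CPM in VPRP non-target and 9.46 CPM in WT. The 3 groups in which DUSP4 was called lower are those with little or no MAGEA10. DUSP4 levels were not divided in that way, as its VPRP non-target libraries overlapped those of p300 D1399Y. The part of whatever separates these cells was not tested.

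DUSP6, the cytoplasmic ERK phosphatase and a common readout of ERK activity, was barely detected. Its counts were 3 and 6 in VPRP sgHBB, 13 and 11 in VPR sgHBB and 15 and 10 in p300 sgHBB. They were 6 and 11 in p300 D1399Y sgHBB, 26 and 9 in VPRP non-target and 7 and 12 in WT. No comparison with WT passed, and the 95% intervals were wide, from -2.72 to 0.32 on the log2 scale with VPRP sgHBB and from -0.52 to 1.94 with VPRP non-target. In each of the 5 comparisons with WT the interval reached past 2-fold in at least 1 direction. A change of that size in that direction is therefore not excluded. Its only call, VPRP sgHBB below VPRP non-target (log2 -1.91, SE 0.686, adjusted p = 0.0334), was lost with DESeq2 (log2 -1.97, adjusted p = 0.062) and without VPRP non-target replicate 1 (log2 -0.86, adjusted p = 0.573). It was also lost without VPRP sgHBB replicate 1 (log2 -1.61, adjusted p = 0.205) or 2 (log2 -2.33, adjusted p = 0.0923). The read-through gene POC1B-DUSP6 overlaps DUSP6, and reads of the pair cannot be told apart here.

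DUSP8, which prefers JNK and p38, had 27.9 and 29.8 CPM in VPRP sgHBB, 24.5 and 21.5 CPM in VPR sgHBB and 34.0 and 35.8 CPM in p300 sgHBB. It had 24.5 and 23.9 CPM in p300 D1399Y sgHBB, 50.5 and 57.4 CPM in VPRP non-target and 33.0 and 33.5 CPM in WT. The VPRP non-target libraries were the highest, and those of VPR and p300 D1399Y were the lowest and overlapped. DUSP8 rose 1.62-fold over WT in VPRP non-target cells (log2 0.70, SE 0.0959, adjusted p = 1.27e-07) and fell with VPR (log2 -0.53, SE 0.104, adjusted p = 0.000236) and p300 D1399Y (log2 -0.46, SE 0.103, adjusted p = 0.000734). With p300 sgHBB (log2 0.07, 95% interval -0.13 to 0.27) and VPRP sgHBB (log2 -0.20, 95% interval -0.41 to 0.00) it was not called. The antisense gene KRTAP5-AS1, which reached at most 2 CPM, and LOC124902608 overlap DUSP8, and the pseudogenes DUSP8P1, DUSP8P2 and DUSP8P5 could share its reads.

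Of the Sprouty genes, SPRY1 and SPRY2 fell with VPRP sgHBB. SPRY1, which restrains receptor tyrosine kinase signalling and is required for normal kidney development in mice, had 10.1 and 12.2 CPM in VPRP sgHBB, 19.6 and 17.7 CPM in VPR sgHBB and 15.7 and 15.6 CPM in p300 sgHBB. It had 20.1 and 20.8 CPM in p300 D1399Y sgHBB, 15.4 and 15.0 CPM in VPRP non-target and 19.2 and 19.0 CPM in WT. The VPRP sgHBB libraries were the lowest, and the VPR libraries overlapped WT. SPRY1 was 1.7-fold lower than in WT with VPRP sgHBB (log2 -0.77, SE 0.131, adjusted p = 5.68e-06). The fall in VPRP non-target cells (log2 -0.33, SE 0.126, adjusted p = 0.0228) was lost with DESeq2 (log2 -0.33, adjusted p = 0.0519), with upper-quartile factors (log2 -0.28, adjusted p = 0.0528) and without VPRP non-target replicate 2 or either WT replicate (adjusted p = 0.0754, 0.0699 and 0.0556). With p300 sgHBB it was not called (log2 -0.29, adjusted p = 0.06), though it was with RLE factors (log2 -0.30, adjusted p = 0.0463).

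SPRY2, the most studied of the family, had 12.3 and 12.6 CPM in VPRP sgHBB, 19.4 and 16.4 CPM in VPR sgHBB and 13.3 and 17.0 CPM in p300 sgHBB. It had 16.5 and 18.1 CPM in p300 D1399Y sgHBB, 17.9 and 16.8 CPM in VPRP non-target and 17.48 and 17.47 CPM in WT. Only the VPRP sgHBB libraries lay below all others, and the remaining 5 groups each overlapped a neighbour. SPRY2 was 1.4-fold lower than in WT with VPRP sgHBB (log2 -0.49, SE 0.137, adjusted p = 0.00257). The other 4 fusion groups had log2 changes of -0.20 to 0.04, none called.

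SPRY4 was close to 0 in WT and rose with both VPRP groups. Its counts were 13 and 19 in VPRP sgHBB, 5 and 5 in VPR sgHBB and 8 and 4 in p300 sgHBB. They were 2 and 1 in p300 D1399Y sgHBB, 15 and 14 in VPRP non-target and 1 and 1 in WT. VPRP sgHBB and VPRP non-target overlapped and lay above all other groups. Over the summed counts the level was 14.5 times that of WT with VPRP sgHBB (exact 95% interval 3.7 to 125, which covers counting error only) and 12.7 times with VPRP non-target (3.22 to 110). Both passed the test (adjusted p = 0.000441 and 0.000881), also when either WT library was left out. SPRY4 counts reached the minimum of the low-count filter only in the VPRP groups, so the gene was tested because of the groups called higher. Both calls held with no low-count filter. With VPR (4.99 times, 1.06 to 46.8, adjusted p = 0.127) and p300 (5.46 times, 1.22 to 50.3, adjusted p = 0.0609) SPRY4 was not called. SPRY4-IT1, a noncoding RNA, lies within SPRY4, and the strand setting of the counting is not given in the sources used here.

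SPRED1, a Sprouty relative that brings the RAS inhibitor neurofibromin (NF1) to the membrane, was called lower in every group that held catalytic p300. It had 9.79 and 9.94 CPM in VPRP sgHBB, 12.5 and 13.3 CPM in VPR sgHBB and 9.55 and 9.95 CPM in p300 sgHBB. It had 14.0 and 12.2 CPM in p300 D1399Y sgHBB, 11.1 and 9.75 CPM in VPRP non-target and 16.1 and 15.5 CPM in WT. WT lay above all fusion libraries, and the VPRP sgHBB, p300 and VPRP non-target libraries overlapped at the bottom. Its log2 change against WT was -0.68 with VPRP sgHBB (SE 0.143, adjusted p = 0.000125), -0.69 with p300 (SE 0.143, adjusted p = 0.000147) and -0.60 with VPRP non-target (SE 0.141, adjusted p = 0.000443). It was -0.29 with VPR (adjusted p = 0.131) and -0.26 with p300 D1399Y (adjusted p = 0.158), neither called. Direct calls of p300 against either of these groups, and of VPRP sgHBB against VPR, were lost in several alternatives, as given below. The 3 calls against WT held under every alternative and with each library left out. The 3 groups called also had the most EP300 reads, from the cell's own gene and the fusion together.

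The immediate early genes were counted in the same comparisons, 25 of the 26 listed having passed the filter. With VPRP sgHBB against WT, 14 of 25 were higher and 7 lower (median log2 0.80). They were led by EGR1 (log2 5.15, SE 0.142, adjusted p = 4.87e-25), CCN2 (log2 4.57, SE 0.245, adjusted p = 2.32e-17), ARC (log2 4.15, SE 0.177, adjusted p = 4.07e-20) and FOS (log2 3.53, SE 0.213, adjusted p = 4.71e-16). With p300 sgHBB 15 were higher and 3 lower (median log2 0.57), and with VPRP non-target 18 were higher and 5 lower (median log2 1.33). With VPR 6 were higher and 6 lower, and with p300 D1399Y 8 were higher and 6 lower. Of the 10 feedback genes, 2 were higher and 5 lower with VPRP sgHBB, 2 and 2 with p300, 4 and 2 with VPRP non-target, 1 and 1 with VPR, and 1 and 3 with p300 D1399Y. Of all tested genes, 31.1% were higher and 28% lower with VPRP sgHBB, 24.5% and 21.6% with p300, and 31.2% and 28.5% with VPRP non-target. The shares were 13.8% and 11.5% with VPR, and 15.7% and 14.5% with p300 D1399Y. No test set the lists against each other, and with 10 genes each call is 10 percent of the list.

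**Figure D3:**
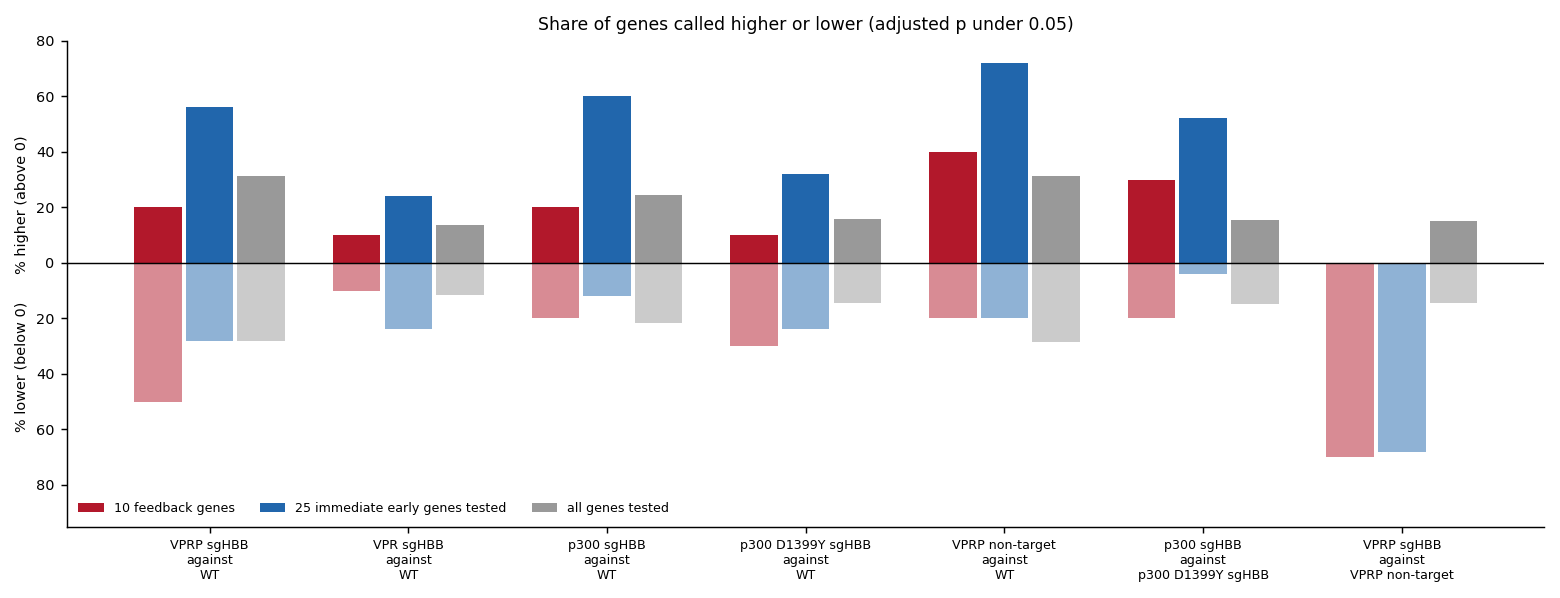
Percent of genes called higher (upward bars) or lower (downward bars) among the 10 feedback genes, the 25 tested immediate early genes and all 16694 tested genes, in 7 comparisons. With VPRP sgHBB against WT, 56% of immediate early genes and 20% of feedback genes are called higher, beside 31.1% of all genes, and with VPR against WT, 24% of immediate early genes are called higher and 24% lower, beside 13.8% and 11.5% of all genes.

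Gene by gene, DUSP5 was high in the same 3 groups as the early genes EGR1 and FOS, those with catalytic p300. These groups also had the most EP300 reads, from the cell's own gene and the fusion together. EP300 was at 351 to 1179 CPM in their libraries and at 86.3 to 196 CPM in the others. Catalytic p300 and the amount of fusion RNA therefore cannot be told apart here. EGR1, the early transcription factor, averaged 122 ± 16.5 CPM in VPRP sgHBB, 4.95 ± 1.68 in VPR, 93.2 ± 2.98 in p300, 16.4 ± 0.686 in p300 D1399Y, 105 ± 9.01 in VPRP non-target and 3.43 ± 0.000355 in WT (SD, n = 2 each). FOS averaged 15.3 ± 2.40 CPM in VPRP sgHBB, 1.94 ± 0.127 in VPR, 18.3 ± 1.43 in p300, 2.97 ± 0.292 in p300 D1399Y, 21.1 ± 0.754 in VPRP non-target and 1.32 ± 0.129 in WT. DUSP1 was high in p300 and VPRP non-target only, and in VPRP sgHBB, where EGR1 had its highest mean, it overlapped WT. DUSP4, DUSP6, SPRY1, SPRY2 and SPRED1 were called higher in no comparison with WT.

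**Figure D4:**
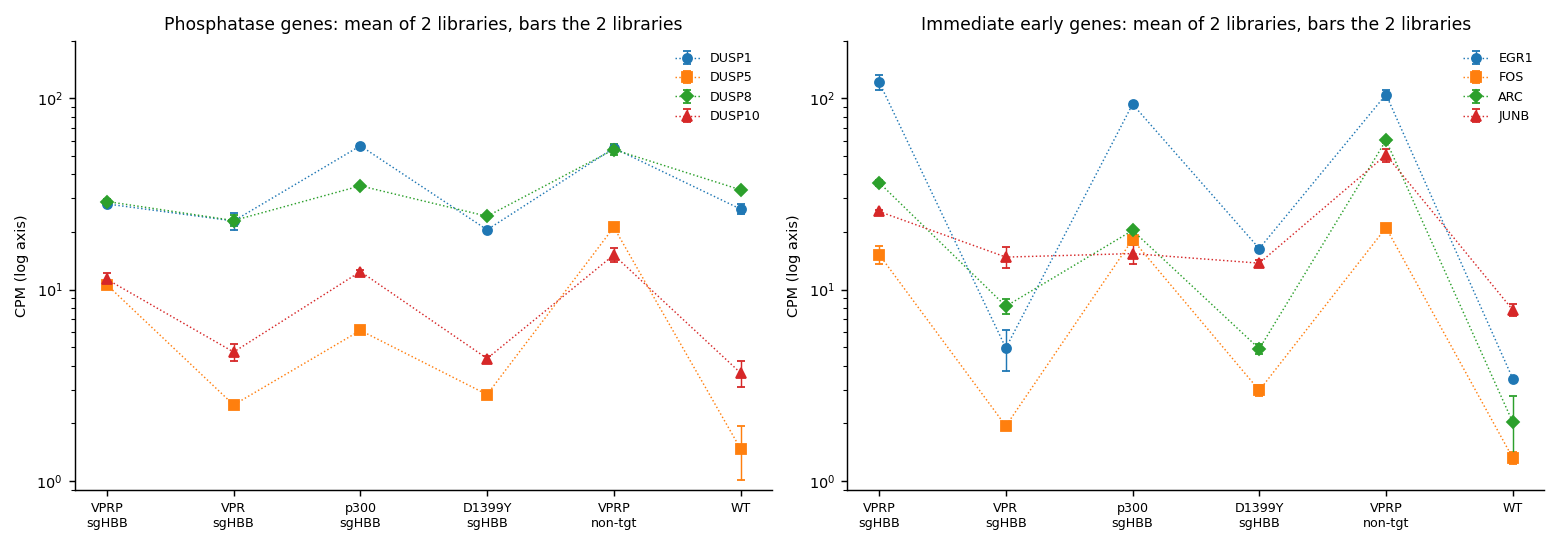
Mean CPM on a log axis of 4 phosphatase genes (left) and 4 immediate early genes (right) in the 6 groups; bars span the 2 libraries, and dotted lines only join the points of a gene. DUSP5 and DUSP10 are high where EGR1, FOS and ARC are high, while DUSP1 averages 28.1 CPM in VPRP sgHBB, close to its 26.4 CPM in WT, where EGR1 averages 122 and 3.43 CPM.

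The comparison of p300 with p300 D1399Y asks what goes with the catalytic activity of the fusion. DUSP1 was 2.75-fold higher with p300 (log2 1.46, SE 0.102, adjusted p = 2.83e-13), DUSP5 2.16-fold and DUSP8 1.44-fold (log2 0.53, SE 0.102, adjusted p = 0.000141). Against WT, DUSP8 was not called with p300 (log2 0.07) and was lower with p300 D1399Y (log2 -0.46) and with VPR (log2 -0.53). SPRY1 (log2 -0.38, SE 0.125, adjusted p = 0.0176) and SPRED1 (log2 -0.43, SE 0.145, adjusted p = 0.0224) were lower. Thus 3 of 10 feedback genes were higher and 2 lower, where 30.4% of all genes were called (15.4% up, 15% down), and 13 of 25 early genes were higher and 1 lower. The SPRY1 call was lost without any 1 of the 4 libraries compared (adjusted p = 0.0748 to 0.0888). The SPRED1 call was lost with DESeq2 (adjusted p = 0.0516), with no low-count filter (adjusted p = 0.0537), and without p300 D1399Y replicate 1 (log2 -0.31, adjusted p = 0.262) or p300 replicate 1 (log2 -0.40, adjusted p = 0.12) or 2 (log2 -0.46, adjusted p = 0.0693). EP300 reads, which count the cell's own gene and the fusion together, were at 1116 and 1132 CPM in p300 sgHBB and 196 and 194 CPM in p300 D1399Y sgHBB. Catalytic activity and the amount of fusion RNA therefore cannot be told apart in this comparison.

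With VPRP, the HBB guide was set against the guide that has no target. DUSP1, DUSP4, DUSP5, DUSP6, DUSP8, SPRY1 and SPRY2 were lower with the HBB guide and the other 3 were not called, where 29.3% of all genes were called (14.9% up, 14.4% down). DUSP1 was 1.96-fold lower (log2 -0.97, SE 0.0976, adjusted p = 1.57e-09), DUSP5 2-fold lower (log2 -0.999, SE 0.157, adjusted p = 7.65e-06) and DUSP8 1.87-fold lower (log2 -0.90, SE 0.0964, adjusted p = 5.88e-09). DUSP4 was 2.73-fold lower (log2 -1.45, SE 0.311, adjusted p = 0.000529). SPRY1 (log2 -0.44, SE 0.132, adjusted p = 0.0116) and SPRY2 (log2 -0.48, SE 0.136, adjusted p = 0.00702) had smaller changes. SPRY1 was not called without VPRP sgHBB replicate 1 (log2 -0.31, adjusted p = 0.179) or without VPRP non-target replicate 1 (log2 -0.40, adjusted p = 0.0902) or 2 (log2 -0.44, adjusted p = 0.0584), and SPRY2 was not without VPRP non-target replicate 1 (log2 -0.42, adjusted p = 0.0789). Without VPRP non-target replicate 1, 4 of 10 genes were called. SPRY4 (log2 0.18, adjusted p = 0.845) and SPRED1 (log2 -0.07, adjusted p = 0.752) were not called. The early genes went the same way, with 17 of 25 lower and the other 8 not called. EP300 reads were at 351 and 398 CPM with the HBB guide and 1165 and 1179 CPM with the non-target guide. The groups also lie on different sides of the MAGEA10 division, so the guide, the amount of fusion RNA and the division cannot be told apart.

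VPRP sgHBB was also set against its parts, all with the HBB guide. VPR lies on the other side of the MAGEA10 division from VPRP sgHBB and p300. In comparisons of VPR with either, the fusion parts and the division cannot be told apart. Against VPR sgHBB, 3 of 10 feedback genes were higher and 5 lower, where 49.8% of all genes were called (24.7% up, 25.1% down). DUSP5 was 4.23-fold higher (log2 2.08, SE 0.208, adjusted p = 3.31e-10), and DUSP1 (log2 0.29, SE 0.106, adjusted p = 0.0211) and DUSP8 (log2 0.33, SE 0.104, adjusted p = 0.00873) were slightly higher. Both small rises were lost without VPR replicate 2 (adjusted p = 0.323 and 0.122), DUSP1 also without VPRP sgHBB replicate 1 (adjusted p = 0.107) and DUSP8 without VPRP sgHBB replicate 2 (adjusted p = 0.0768). DUSP4 was 3.66-fold lower (log2 -1.87, SE 0.304, adjusted p = 4.28e-06), SPRY1 1.66-fold (log2 -0.74, SE 0.131, adjusted p = 1.75e-05) and SPRY2 1.44-fold (log2 -0.53, SE 0.137, adjusted p = 0.00165). DUSP2 was lower as given above, and SPRED1 was called lower (log2 -0.39, SE 0.146, adjusted p = 0.0268) but not with DESeq2 (adjusted p = 0.072), with no low-count filter (adjusted p = 0.0523), when only those groups were fitted (adjusted p = 0.0691) or without any of 3 of the 4 libraries compared (adjusted p = 0.0873 to 0.118). Without VPR replicate 2, 5 of the 10 were called in all.

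Against p300 sgHBB, 1 of 10 was higher with VPRP sgHBB and 4 were lower, where 27.9% of all genes were called (14.3% up, 13.7% down). DUSP5 was higher, DUSP1 was 2.01-fold lower (log2 -1.01, SE 0.0977, adjusted p = 6.22e-10), and SPRY1 was lower (log2 -0.48, SE 0.132, adjusted p = 0.00581) but not without VPRP sgHBB replicate 1 (log2 -0.36, adjusted p = 0.104). The DUSP4 (log2 -0.94, SE 0.328, adjusted p = 0.0286) and DUSP8 calls (log2 -0.27, SE 0.0993, adjusted p = 0.0382) were lost without any 1 of the 4 libraries compared (adjusted p = 0.0504 to 0.168 for DUSP4 and 0.0677 to 0.2 for DUSP8). DUSP8 was also lost with DESeq2 (adjusted p = 0.0911) and with no low-count filter (adjusted p = 0.0712). Without VPRP sgHBB replicate 1, 2 of the 10 were called, and without VPRP sgHBB replicate 2 or p300 replicate 2, 3 were. EP300 reads were 3-fold lower with VPRP sgHBB than with p300. VPR sgHBB against p300 sgHBB had 3 of 10 higher (DUSP2, DUSP4 and SPRED1) and 3 lower (DUSP1, DUSP5 and DUSP8), where 34.3% of all genes were called (17% up, 17.2% down). Early genes in that comparison had 15 of 25 lower and the other 10 not called. DUSP1 was 2.47-fold lower with VPR (log2 -1.30, SE 0.101, adjusted p = 2.52e-12) and DUSP5 2.45-fold lower (log2 -1.29, SE 0.222, adjusted p = 2.33e-05). DUSP4 was higher with VPR (log2 0.93, SE 0.274, adjusted p = 0.00802), but not without VPR replicate 1 (log2 0.70, adjusted p = 0.105), and stood at the threshold without p300 replicate 2 (log2 0.90, adjusted p = 0.05). SPRED1 (log2 0.40, SE 0.146, adjusted p = 0.0301) was not called without any 1 of those 4 libraries (adjusted p = 0.0514 to 0.136), with DESeq2 (adjusted p = 0.0691), with no low-count filter (adjusted p = 0.0634) or when only those groups were fitted (adjusted p = 0.0553).

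An interaction term asked whether the VPR part changed a gene differently with p300 present, as VPRP against p300, than without it, as VPR against WT. It called 15.2% of all genes, 6.68% positive and 8.53% negative, and among the feedback genes DUSP1 and DUSP2, both negative. For DUSP1 the VPR part went with a change of -1.01 beside p300 and -0.21 without it, on the log2 scale. The difference was -0.80 (SE 0.145, adjusted p = 0.00022) and held under every alternative. For DUSP2 the changes were -0.39 beside p300 and 0.63 without it, and the difference was -1.01 (SE 0.3, adjusted p = 0.0195). It was not called without VPRP sgHBB replicate 2 (log2 -0.71, adjusted p = 0.163), p300 replicate 1 (log2 -1.04, adjusted p = 0.0509), p300 replicate 2 (log2 -0.99, adjusted p = 0.0558) or WT replicate 1 (log2 -0.90, adjusted p = 0.0791). For DUSP5 the interaction was 0.04 (95% interval -0.70 to 0.78). EP300 reads showed a negative interaction too (log2 -1.48, SE 0.119, adjusted p = 7.78e-11), and the part of fusion amount in the DUSP1 value was not tested. VPRP non-target, which also joins VPR to p300, had DUSP1 at 53.0 and 56.9 CPM and overlapped p300. VPRP sgHBB and p300 have little or no MAGEA10, while VPR and WT have it. The presence of p300 and that division therefore cannot be told apart in this term.

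**Figure D5:**
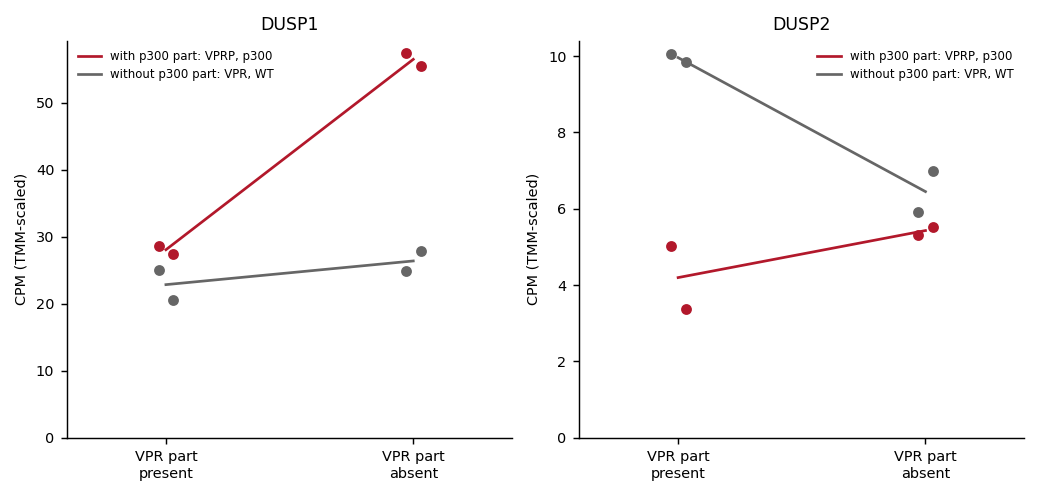
DUSP1 (left) and DUSP2 (right) in CPM with the VPR part present or absent, each point a library and each line joining group means; red has the p300 part (VPRP sgHBB and p300 sgHBB) and grey lacks it (VPR sgHBB and WT). DUSP1 is at 27.5 to 28.6 CPM in VPRP sgHBB and 55.5 to 57.4 CPM in p300, while VPR and WT stay between 20.6 and 27.9 CPM.

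Relatives of the feedback genes were read from a list of 7 further phosphatase, Sprouty and Spred genes. DUSP10, which acts on JNK and p38, averaged 11.3 ± 1.33 CPM in VPRP sgHBB, 4.72 ± 0.672 in VPR, 12.4 ± 0.423 in p300, 4.36 ± 0.205 in p300 D1399Y, 15.2 ± 1.80 in VPRP non-target and 3.67 ± 0.799 in WT (SD, n = 2 each). It rose with VPRP sgHBB (log2 1.62, SE 0.192, adjusted p = 6.63e-09), p300 (log2 1.76, SE 0.19, adjusted p = 2.37e-09) and VPRP non-target (log2 2.05, SE 0.186, adjusted p = 1.64e-11), and was higher with p300 than with p300 D1399Y (log2 1.51, SE 0.183, adjusted p = 9.75e-08). SPRY3 rose in the same 3 groups, by log2 2.49 with VPRP sgHBB, 1.45 with p300 and 1.63 with VPRP non-target. DUSP16, another phosphatase of JNK and p38, fell in all 5 fusion groups, most with VPRP sgHBB (SE 0.0937, adjusted p = 3.59e-11), where it averaged 28.9 CPM against 57.7 CPM in WT, and least with VPR (log2 -0.57, SE 0.0919, adjusted p = 1.83e-05). SPRED2 fell with VPRP sgHBB (log2 -0.63, SE 0.134, adjusted p = 0.000153) and p300 (log2 -0.68, SE 0.135, adjusted p = 8.82e-05). In all, 3 of 7 were higher and 3 lower with VPRP sgHBB, beside 31.1% and 28% of all genes. With p300 the relatives had 2 higher and 3 lower, beside 24.5% and 21.6% of all genes, and with VPRP non-target 3 and 2, beside 31.2% and 28.5%. With VPR 2 were lower and with p300 D1399Y 1 was, the others not called, beside 11.5% and 14.5% of all genes called lower in those groups.

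Of 9 other brakes on receptor and RAS signalling, 6 were higher and 1 lower with VPRP sgHBB, where 31.1% of all genes were higher and 28% lower. With p300 the counts were 4 and 1, beside 24.5% and 21.6% of all genes, and with VPRP non-target 5 and 1, beside 31.2% and 28.5%. With VPR 1 was lower, beside 11.5% of all genes, and with p300 D1399Y 3 were higher, beside 15.7%. ERRFI1, which inhibits the EGF receptor, averaged 94.1 ± 7.23 CPM in VPRP sgHBB, 28.8 ± 0.692 in VPR, 55.3 ± 0.406 in p300, 34.1 ± 1.02 in p300 D1399Y, 141 ± 5.57 in VPRP non-target and 30.9 ± 0.838 in WT (SD, n = 2 each). Its log2 change against WT was 1.60 with VPRP sgHBB (SE 0.0851, adjusted p = 1.62e-17), 0.84 with p300 (SE 0.0871, adjusted p = 1.06e-09) and 2.19 with VPRP non-target (SE 0.0843, adjusted p = 2.47e-21). IL17RD, also called SEF and an inhibitor of FGF signalling, rose by log2 1.20 with VPRP sgHBB, 0.70 with p300 and 0.93 with VPRP non-target, and by 0.50 with the D1399Y form. NF1, the partner of SPRED1, fell with VPRP sgHBB (log2 -0.42, SE 0.092, adjusted p = 0.000209), p300 (log2 -0.39, SE 0.0919, adjusted p = 7e-04) and VPRP non-target (log2 -0.51, SE 0.0922, adjusted p = 1.42e-05).

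Of 7 ERK output genes, which lie downstream of ERK, 3 were higher and 2 lower with VPRP sgHBB, beside 31.1% and 28% of all genes. The counts were 1 and 2 with p300 (24.5% and 21.6% of all genes), 3 and 2 with p300 D1399Y (15.7% and 14.5%) and 2 and 2 with VPRP non-target (31.2% and 28.5%). With VPR 1 was lower (11.5% of all genes) and the other 6 were not called. CCND1, cyclin D1, averaged 13.2 ± 2.65 CPM in VPRP sgHBB, 49.3 ± 3.86 in VPR, 20.9 ± 0.0603 in p300, 19.7 ± 2.90 in p300 D1399Y, 36.4 ± 0.875 in VPRP non-target and 57.8 ± 4.17 in WT (SD, n = 2 each). It fell with VPRP sgHBB (log2 -2.13, SE 0.118, adjusted p = 5.32e-17), p300 (log2 -1.46, SE 0.111, adjusted p = 8.1e-13), p300 D1399Y (log2 -1.55, SE 0.113, adjusted p = 5.5e-13) and VPRP non-target (log2 -0.67, SE 0.105, adjusted p = 1.55e-06). EPHA4 fell in all 5 fusion groups, by 0.61 with VPR to 1.12 with VPRP non-target on the log2 scale. PHLDA1 rose with VPRP sgHBB (log2 0.84, SE 0.329, adjusted p = 0.0275) and VPRP non-target (log2 1.03, SE 0.324, adjusted p = 0.0066). EPHA2 rose with VPRP sgHBB (log2 0.34, SE 0.11, adjusted p = 0.00834), p300 D1399Y (log2 0.52, SE 0.109, adjusted p = 0.000322) and VPRP non-target (log2 0.58, SE 0.108, adjusted p = 2.63e-05). With p300 it was not called (log2 -0.10). ETV5 was called higher with VPRP sgHBB and p300 D1399Y, and ETV4 with p300 and p300 D1399Y. Both had a mean log2 CPM below 1.

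Upstream, 9 of 12 growth factor ligand genes were tested, and 5 were higher and 2 lower with VPRP sgHBB, 4 were higher with p300, 5 were higher and 1 lower with VPRP non-target, and 3 each were higher with VPR and p300 D1399Y. In all genes 31.1% were higher and 28% lower with VPRP sgHBB, 24.5% and 21.6% with p300, 31.2% and 28.5% with VPRP non-target, 13.8% and 11.5% with VPR, and 15.7% and 14.5% with p300 D1399Y, and the counts that follow stand beside the same shares. HBEGF, a ligand of the EGF receptor, averaged 23.3 ± 0.703 CPM in VPRP sgHBB, 4.56 ± 0.715 in VPR, 9.10 ± 1.37 in p300, 4.61 ± 0.717 in p300 D1399Y, 24.6 ± 1.68 in VPRP non-target and 2.80 ± 0.0293 in WT (SD, n = 2 each). It rose in all 5 fusion groups, by log2 3.05 with VPRP sgHBB (SE 0.178, adjusted p = 1.93e-16), 0.70 with VPR (SE 0.221, adjusted p = 0.0186) and 1.70 with p300 (SE 0.196, adjusted p = 9.36e-09). With p300 D1399Y it rose by log2 0.71 (SE 0.219, adjusted p = 0.0128) and with VPRP non-target by 3.13 (SE 0.177, adjusted p = 8.84e-17). Of 12 growth factor receptors, 3 were higher and 6 lower with VPRP sgHBB, 3 and 6 with p300, 3 and 7 with VPRP non-target, 2 and 3 with VPR and 2 and 2 with p300 D1399Y. FGFR4 was higher with VPRP sgHBB (log2 1.15), p300 (log2 0.69) and VPRP non-target (log2 1.501). In these groups MET was lower, by log2 -1.29 with VPRP sgHBB, -0.69 with p300 and -1.25 with VPRP non-target. IGF1R was lower too, by log2 -1.21 with VPRP sgHBB, -0.97 with p300 and -0.90 with VPRP non-target. The 18 genes of the RAS to ERK cascade had 8 higher and 5 lower with VPRP sgHBB, 2 and 6 with p300, 8 and 5 with VPRP non-target, 2 and 5 with VPR and 2 and 2 with p300 D1399Y, led with VPRP sgHBB by the ERK-activated kinase RPS6KA1 (log2 1.13, SE 0.078, adjusted p = 1.98e-14). The 11 genes of the JNK and p38 cascades had 5 higher and 2 lower with VPRP sgHBB, 6 and 3 with p300, 3 and 3 with VPRP non-target, 1 and 1 with VPR and 2 and 4 with p300 D1399Y. Among these, MAPK13, a p38 kinase, was at 5.44 CPM in VPRP sgHBB, 0.851 in VPR, 5.77 in p300, 10.5 in p300 D1399Y, 0.725 in VPRP non-target and 0.595 in WT on average, which is the division that MAGEA10 shows, turned round.

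Over the 12 libraries, the genes most like each feedback gene were ranked by Pearson's r of log2 CPM among 12458 genes with symbols. These values are descriptions: the 12 libraries form 6 pairs and share their group differences. DUSP5 was most like CISH, an inhibitor of cytokine signalling (r = 0.992), PLK2, a polo-like kinase (r = 0.988), and CDKN2D, a cyclin-dependent kinase inhibitor (r = 0.986). DUSP1 was most like SKA1 and the histone gene H2AC6 (r = 0.984 each), SPRY2 most like SMAD7 (r = 0.938) and SPRED1 most like MTAP (r = 0.977). Among the feedback genes themselves, DUSP1 followed DUSP8 (r = 0.833), DUSP5 followed SPRY4 (r = 0.867) and SPRY1 followed SPRY2 (r = 0.81). DUSP5 and SPRED1 ran opposite to each other (r = -0.836). Against WT they were called in opposite directions with VPRP sgHBB, p300 and VPRP non-target, while with p300 D1399Y only DUSP5 was called.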

How the data were processed

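RNA sequencing counts of 12 HEK293 libraries in 6 groups of 2 were analysed; 10 H3K27ac ChIP samples were not analysed here. The authors deposited unnormalized read counts for each gene ID. Per the submitters' processing notes, the build was hg19 and the tools, named without role or order, were BWA, deepTools, DESeq2 1.24.0, HTSeq 0.6.1 and STAR 2.5. Strand setting and annotation release: not given in the sources used here. Columns were assigned by their own names, and symbols matched 33626 of 48162 IDs.

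The tests were run with edgeR 4.0.16 in R 4.3.3. Genes were kept by filterByExpr (minimum count 10, minimum total 15), scaled by TMM factors and fitted with a mean for each of 6 groups over all 12 libraries by the quasi-likelihood method, which shares 1 estimate of spread. All 11 comparisons were adjusted by Benjamini-Hochberg over all tested genes. Reads carried no molecular identifiers, so intervals of count ratios cover counting error only. Variance between replicates exceeded the Poisson value by a factor of 2.86 in VPRP non-target, the lowest, and 13.67 in VPR, the highest.

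The feedback genes and all lists were chosen with earlier results of these data known. From each other list, up to 4 genes are named by comparison: the largest called changes with a mean log2 CPM of at least 1. MAGEA10 was chosen after its values were seen. Replicate numbers did not pair the libraries: the correlation of same-numbered deviations was -0.15 to 0.13 over 15 pairs of groups. Each result was recomputed with each library left out, with a replicate block, with only the groups compared, with 1 CPM required in 2 or more libraries, with no low-count filter, with upper-quartile or RLE factors and with DESeq2 1.42.0. The edgeR fit was run on counts simulated from the WT means, with 200 genes changed in VPRP sgHBB and the same spread for every gene. In VPRP sgHBB against WT it recovered 54.5% of 1.5-fold and 91.3% of 4-fold changes. For the interaction it recovered 10.9% of 1.5-fold and 82.6% of 4-fold changes. Promoters are RefSeq windows on GRCh38.p14, which is not the build of the counts, so no coordinate was matched to a count. Figures were drawn with matplotlib 3.10.9.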

Additional observations from a re-analysis of the deposited data

Results flagged for a closer look

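For DUSP1, VPRP sgHBB against p300 differed from VPR against WT, by the interaction term of edgeR's quasi-likelihood fit (log2 -0.80, SE 0.145, adjusted p = 0.00022). DUSP1 was lower in both VPRP sgHBB libraries than in both p300 libraries, while the VPR and WT libraries overlapped. VPRP non-target, which also joins VPR to p300, had DUSP1 at 53.0 and 56.9 CPM and overlapped p300. EP300 reads showed a negative interaction too. The parts of fusion amount and of the MAGEA10 division were not tested. The interaction term was also called for DUSP2 (log2 -1.01, SE 0.3, adjusted p = 0.0195). DUSP2 was higher in both VPR libraries than in both WT libraries and did not pass between VPRP sgHBB and p300. The DUSP2 value lost its call when any of 4 libraries was left out (log2 -0.71 to -1.04, adjusted p = 0.0509 to 0.163).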

How the results depend on the processing

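Of 110 pairs of a feedback gene and a comparison, 56 were called. Of these, 36 kept their call under every alternative that gave a value and with each library left out, and 20 lost it in at least 1 of them, as given beside the results. The stricter low-count filter gave no value for 2 of the 36, both of SPRY4. Of the 54 pairs not called, 7 passed in at least 1. No direction turned among called values. With DESeq2, 1 feedback gene was called in VPR against WT in place of 2.

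With 1 library left out at a time, the number of feedback genes called ran from 1 to 3 in VPR against WT, 5 to 8 in VPRP against VPR, 4 to 6 in VPRP against VPRP non-target and 2 to 4 in VPRP against p300. It ran from 1 to 2 for the interaction, 2 to 3 in p300 D1399Y against WT and 3 to 4 in p300 against p300 D1399Y. The immediate early genes called in VPR against WT ran from 7 to 11, against 12 with all libraries. All genes called ran from 2548 to 4199 in VPR against WT, 3185 to 3770 in VPRP against VPRP non-target, 3089 to 3501 in VPRP against p300, 1427 to 3278 for the interaction and 3193 to 3746 in p300 against p300 D1399Y. A left-out library leaves 1 in its group, which is then assumed to vary like the other groups.

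With the replicate block, no call of a feedback gene changed, and no count of genes called moved by a factor of more than 1.5. The counts over all genes did fall, for example from 4220 to 4006 in VPR against WT and from 2539 to 2286 for the interaction. The replicate numbers did not pair the libraries. DUSP6 and SPRY4, at 35 counts or fewer over a group, are limited by depth. With 2 libraries a group, the spread rests on all 6 groups.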
